A study of Mus musculus with 13 samples.

Results

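The data describe 10 genes of the TNF receptor superfamily in sorted CD4 T cells, Tnfrsf1a, Tnfrsf1b, Tnfrsf4, Tnfrsf8, Tnfrsf9, Tnfrsf14, Tnfrsf18, Tnfrsf25, Cd27 and Fas. The members were taken by name, each as the row of the count tables that carries its symbol, and all 10 were found in both tables among 24417 genes. Receptors of this family are surface proteins that bind trimeric ligands of the TNF superfamily, carried mostly by antigen-presenting cells and other T cells. Most of them recruit TRAF adaptor proteins, switch on the NF-kB transcription factors and costimulate T cells, whereas those with a cytoplasmic death domain can also recruit FADD or TRADD and start apoptosis. In regulatory T (Treg) cells OX40 (Tnfrsf4), GITR (Tnfrsf18), CD137 (Tnfrsf9) and TNFR2 (Tnfrsf1b) are known as receptors of activated cells that help to carry the T cell receptor signal into Treg cell differentiation and expansion.

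Foxp3 was knocked out in a reversible way by the Foxp3LSL allele, in which a Thy1.1 reporter and a STOP cassette flanked by loxP sites precede a GFP-tagged Foxp3, so that Thy1.1 marks Foxp3-deficient Treg “wannabes”. In the first experiment, male C57BL/6 mice were given 4-hydroxytamoxifen (4-OHT) once, on postnatal day 14, and were analyzed on day 21. Rescued Treg cells came from diseased Foxp3LSL/y Cd4creERT2 mice (n = 3 libraries), in which the drug lets a Cre recombinase expressed under Cd4 remove the cassette, control Treg cells from healthy Foxp3DTR-GFP/y Cd4creERT2 mice (n = 3), and Treg “wannabes” from Foxp3LSL/y Cd4wt mice (n = 2), which have no recombinase and stay diseased. In the second experiment, female mice aged 9-11 weeks were injected with diphtheria toxin on alternate days, from 7 days to 1 day before analysis, and “wannabes” were sorted from Foxp3LSL/WT Cd4wt mice (resting, n = 3), whose wild-type Treg cells are insensitive to the toxin, and from Foxp3LSL/DTR Cd4wt mice (activated, n = 2), whose other Treg cells carry the toxin receptor and are killed. Cells of pooled spleen and lymph nodes were sorted by TCRβ, CD4, Foxp3 reporter and Thy1.1, with CD8+, NK1.1+ and dead cells gated out, and the recombinase acts in all cells that express Cd4. Each library stands for 1 replicate as labelled, and the p-values below measure the spread between these libraries. No library holds rescued Treg cells of healthy mice or control Treg cells of diseased mice, so the origin of a cell and the state of its host cannot be told apart in the male experiment, and sex, age, agent and experiment cannot be told apart between them. The libraries are bulk, so that a change of RNA per cell and a change in the share of cells that express a gene cannot be told apart either.

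Between 25556783 and 36659638 reads were counted per library (median 31462226). Foxp3 was read at 167 to 252 CPM (read counts relative to the TMM-scaled library size) in control Treg cells, 865 to 1109.7 in rescued Treg cells and 52.8 to 99.8 in the 3 “wannabe” populations. Of the T cell markers the 6 in the tables summed to between 4038 and 6471 CPM in every library. The 8 B cell markers summed to 73.2 CPM at most, the 5 of CD8 T and NK cells to 34.6, the 4 erythroid ones to 17.4, the 8 myeloid ones to 13.8 and the 6 dendritic ones to 8.04. The male “wannabe” libraries differed from each other on the members. In “wannabe” replicate 1, 7 of the 10 members were lower than in replicate 2 by between 0.64 (Tnfrsf25) and 1.05 (Tnfrsf1a) on the log2 scale, while the median of all genes differed by -0.06 and 26.7% of them were lower by over 0.5. These 7 have transcripts of 53.3% to 59.4% GC, against a median of 49.3% among the genes tested, and over all genes the ratio of these libraries went with GC content (medians of 0.44 for genes under 45% and -0.45 for genes over 55%). Tnfrsf9 (47.8% GC, -0.10) and Fas (43.9%, 0.08) were read at close to the same level in both, and Tnfrsf8 (54.1%) was higher in replicate 1 (0.23). The part of GC content in the results was not tested beyond a fit with a GC correction, whose values are given where they change a call.

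Of the 10 genes, 7 lie on chromosome 4 of GRCm38 in the GENCODE M21 annotation, and all are protein coding. Tnfrsf4 (chr4:156013843-156016612) and Tnfrsf18 (chr4:156026164-156028895) are neighbors on the plus strand, 9551 bases apart with no coding gene between them. Tnfrsf1b (chr4:145213463-145246870) and Tnfrsf8 (chr4:145267137-145315164) are neighbors on the minus strand, 20.3 kb apart. Tnfrsf9 (chr4:150914562-150946102, plus), Tnfrsf25 (chr4:152115934-152120119, plus) and Tnfrsf14 (chr4:154921933-154928563, minus) lie between these pairs. Cd27 (chr6:125232622-125237010, minus) and Tnfrsf1a (chr6:125349362-125362484, plus) flank Tuba3a, Ltbr and Scnn1a on chromosome 6, and Fas lies on chromosome 19 (chr19:34290666-34327772, plus). An antisense gene, Gm16008, shares 414 exonic bases (27.2%) with Tnfrsf18. The sources used here do not say whether strand was used in the counting, so reads of this stretch cannot be told apart.

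The promoters of the 4 members with the largest called changes are shown, since motifs of the factors downstream of these receptors can be looked up in them, from 250 bases before to 50 bases after the start of transcription in RefSeq (GRCm38.p6, sense strand, 5′ to 3′). All 10 members matched at least 1 of the 12 windows of the table. Capitals mark matches on either strand to an NF-kB consensus, to the AP-1 motif TGANTCA and to the STAT motif TTCNNNGAA, with no overlap between different motifs in these windows.
Tnfrsf9 (chr4:150927749-150928048, plus): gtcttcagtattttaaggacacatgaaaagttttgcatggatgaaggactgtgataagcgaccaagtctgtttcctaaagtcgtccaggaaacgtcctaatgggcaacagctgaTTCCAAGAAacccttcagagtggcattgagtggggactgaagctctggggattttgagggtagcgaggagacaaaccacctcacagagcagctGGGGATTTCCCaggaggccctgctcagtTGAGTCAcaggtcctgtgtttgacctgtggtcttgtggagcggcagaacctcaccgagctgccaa
Fas (chr19:34290409-34290708, plus): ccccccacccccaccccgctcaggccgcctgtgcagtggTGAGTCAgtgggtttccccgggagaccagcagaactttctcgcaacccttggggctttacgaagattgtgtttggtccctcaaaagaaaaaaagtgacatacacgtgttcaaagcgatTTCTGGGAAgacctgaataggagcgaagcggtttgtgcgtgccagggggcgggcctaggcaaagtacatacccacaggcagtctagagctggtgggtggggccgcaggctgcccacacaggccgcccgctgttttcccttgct
Tnfrsf4 (chr4:156013445-156013744, plus): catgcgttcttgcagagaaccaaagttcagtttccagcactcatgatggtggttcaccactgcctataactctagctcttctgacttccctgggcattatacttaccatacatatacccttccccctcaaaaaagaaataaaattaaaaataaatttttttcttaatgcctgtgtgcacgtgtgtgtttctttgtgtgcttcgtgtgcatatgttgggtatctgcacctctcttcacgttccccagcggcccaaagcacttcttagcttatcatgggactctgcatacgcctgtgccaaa
Tnfrsf18 (chr4:156026072-156026371, plus): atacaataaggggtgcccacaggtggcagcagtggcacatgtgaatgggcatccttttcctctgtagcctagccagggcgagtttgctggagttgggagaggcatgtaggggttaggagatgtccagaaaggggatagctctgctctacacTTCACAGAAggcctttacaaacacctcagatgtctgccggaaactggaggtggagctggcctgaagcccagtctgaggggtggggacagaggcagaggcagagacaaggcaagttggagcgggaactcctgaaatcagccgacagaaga
The Tnfrsf9 window held all of these motifs, the Fas window an AP-1 and a STAT match, the Tnfrsf18 window a STAT match and the Tnfrsf4 window none. Among the 10 members NF-kB matches were found for Tnfrsf8, Tnfrsf9 and Tnfrsf25, and 8.46% of 32851 promoters of the same length hold one. AP-1 matches were found for Fas, Tnfrsf8 and Tnfrsf9 (7.81% of all promoters) and STAT matches for 6 members (8.30%). No member window held the forkhead motif GTAAACA, which 3.65% of promoters hold. A second RefSeq start of Tnfrsf9, upstream of the one shown, held none of these motifs.

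Levels of different genes were compared as CPM per kb of exon. In control Treg cells the order was led by Tnfrsf4 with 428 ± 27.4 CPM per kb (SD, n = 3) and Tnfrsf18 with 349 ± 25.4, the OX40 and GITR genes, which ranked 39 and 60 among 17621 genes with counts. Cd27, a costimulatory receptor of naive and resting T cells, followed with 206 ± 12.0 CPM per kb, and overlapped Tnfrsf1b with 192 ± 13.4. Tnfrsf9 stood at 125 ± 2.53 CPM per kb, Tnfrsf25 at 82.9 ± 7.30 and Fas at 52.2 ± 9.93. At the low end of the order were Tnfrsf1a (17.1 ± 2.44 CPM per kb), Tnfrsf14 (13.5 ± 5.33), which did not differ beyond their spread, and Tnfrsf8 (2.29 ± 0.989). Tnfrsf4 led and Tnfrsf8 closed the order in all 5 populations. In resting “wannabes” the first 5 members ran from 157 ± 16.1 CPM per kb for Tnfrsf4 to 102 ± 23.3 for Cd27, with each overlapping the next. With the longest transcript as the length in place of all exons, Cd27 moved ahead of Tnfrsf1b in the 4 populations where it stood behind it.

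**Figure D1:**
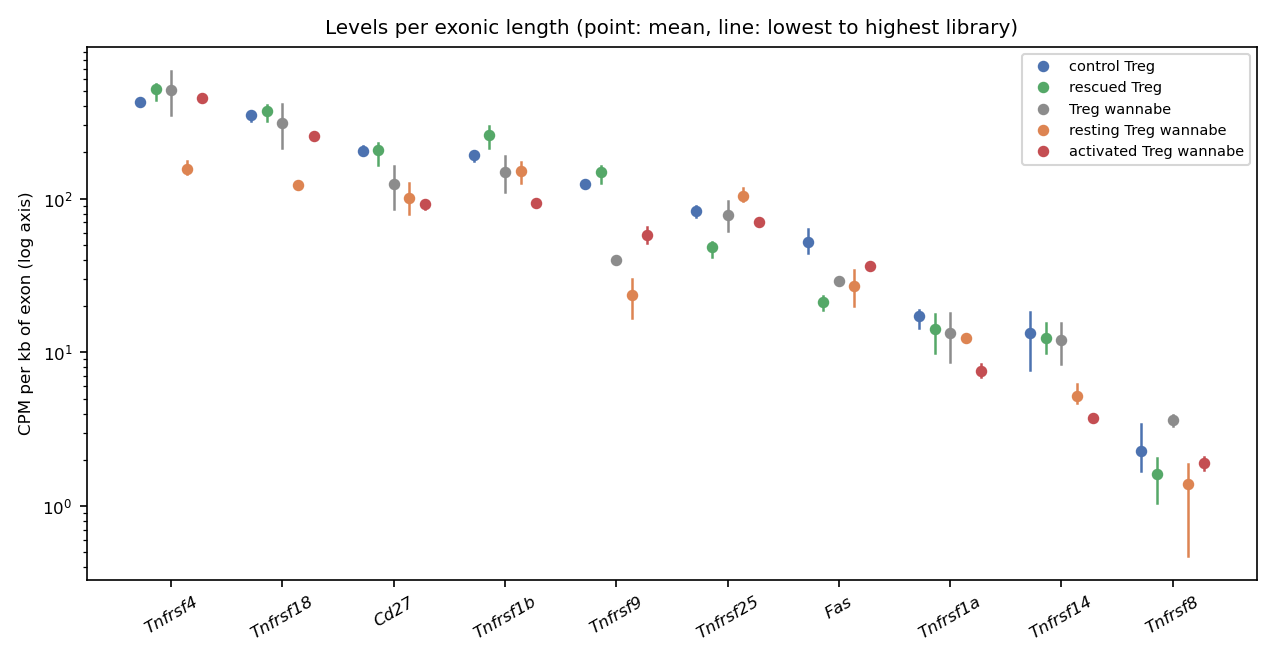
Level of each receptor gene per kb of exon (log axis) in the 5 populations, with the mean as a point and the lowest and highest library as a line. Tnfrsf4 and Tnfrsf18 stand at 122 to 515 CPM per kb, Tnfrsf8 at 1.39 to 3.61, and male and female libraries were normalized separately.

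**Figure D2:**
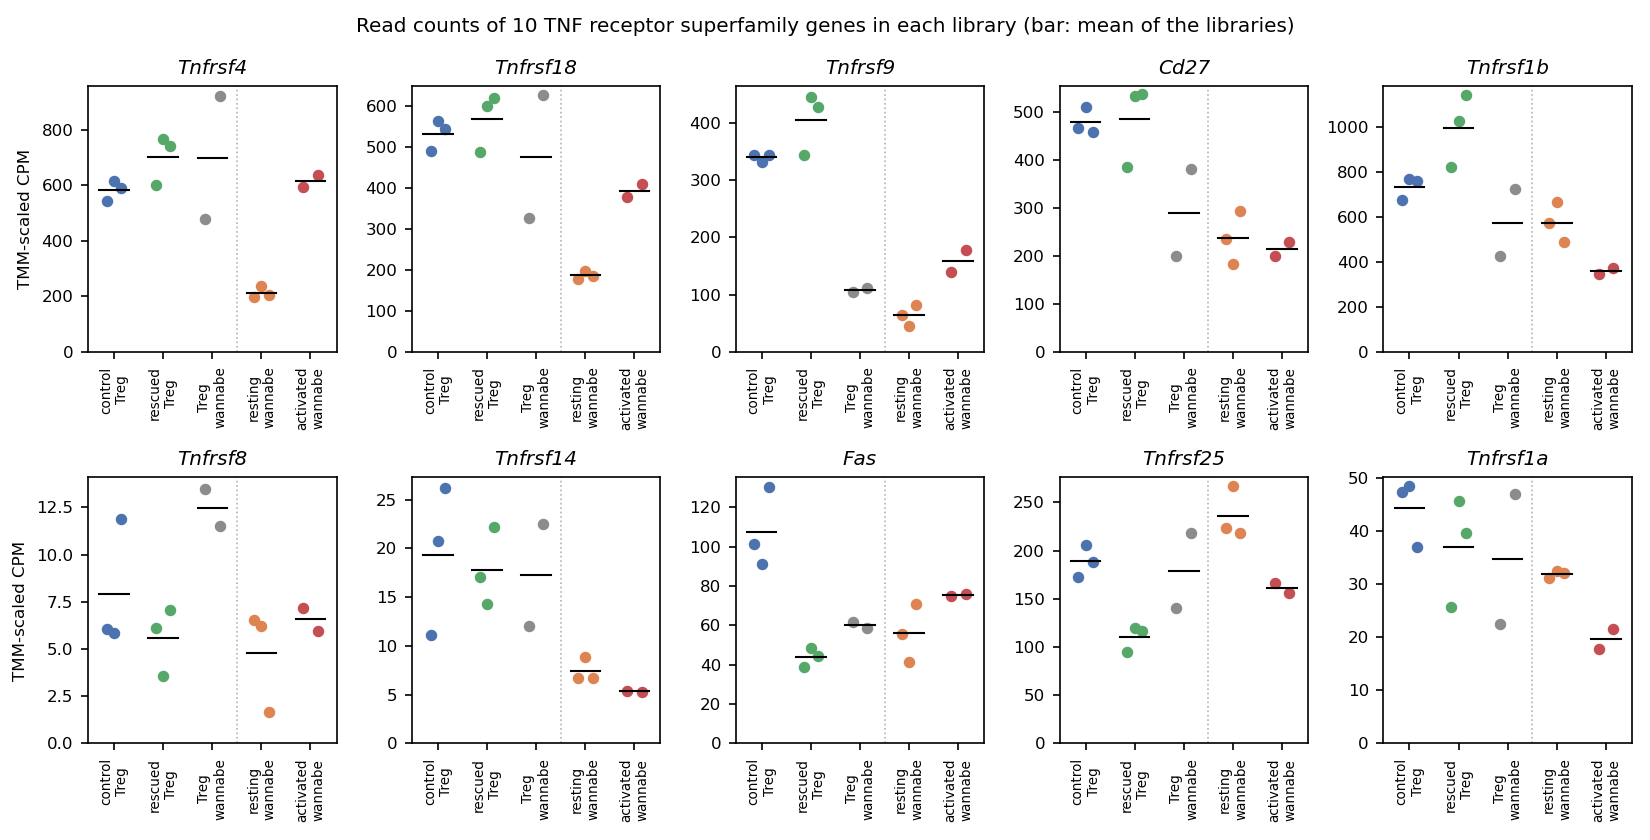
TMM-scaled CPM of each receptor gene in every library (points) with the mean of the population (bar), male populations left and female populations right of the dotted line, axes from 0. The Fas points of rescued Treg cells lie below all others of the male experiment, and the Tnfrsf9 points of both Treg populations lie at 332 to 444 CPM, above the 104 and 112 CPM of the male “wannabes”.

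The first question was how Treg cells rescued in diseased mice differ from Treg cells of healthy mice. Of the 10 receptor genes 9 were not called, and the gene that fell was Fas, the death receptor CD95 through which activated T cells are deleted. Fas was read at 101, 91.1 and 130.5 CPM in the 3 control Treg libraries and at 38.6, 48.3 and 44.4 CPM in the 3 rescued Treg libraries. All rescued libraries lay below all controls, 2.46-fold lower (log2 -1.30 ± 0.19 SE, adjusted p = 0.0079, edgeR, quasi-likelihood F-test, Benjamini-Hochberg over 14925 genes). It was called in all 8 fits that left out a library (adjusted p from 0.00449 to 0.0342) and in the 7 other alternatives. Fas was the only member called of 10, where 2.30% of all genes tested were called (1.43% higher, 0.864% lower).

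Tnfrsf25, the death receptor DR3, whose ligand TL1A expands Treg cells, was read at 172, 206 and 189 CPM in control and at 94.8, 119 and 117 CPM in rescued Treg libraries. These did not overlap either, but the difference of -0.77 ± 0.19 (log2) had an adjusted p of 0.0614 and was not called. It passed in 6 of 7 alternatives, the GC correction among them (-0.92, adjusted p = 0.00652), with adjusted p from 0.00616 (DESeq2) to 0.0626 (DESeq2 size factors, not passed), and when either “wannabe” library was left out of the joint fit (0.0149 without replicate 1, 0.0159 without replicate 2). The third death-domain receptor, Tnfrsf1a or TNFR1, which is found on most cell types, overlapped between the populations (37.0 ± 10.3 against 44.4 ± 6.33 CPM, SD, n = 3, log2 -0.26 ± 0.30).

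Of the 7 members without a death domain, 0 were called by edgeR, 0 by DESeq2 and 1 at an unadjusted p under 0.05. Tnfrsf1b, encoding TNFR2, was read at 675, 768 and 759 CPM in control and at 819.7, 1026 and 1141 CPM in rescued Treg libraries. Its libraries did not overlap, yet the log2 difference of 0.44 ± 0.19 did not pass (adjusted p = 0.294). Tnfrsf9, an activation-induced costimulatory receptor, read 344, 332 and 344 CPM in control and 344, 444 and 427 CPM in rescued libraries (log2 0.25 ± 0.14, adjusted p = 0.415). Tnfrsf18 differed by 0.10 ± 0.21 (log2), with 532 ± 38.7 CPM in control and 568 ± 70.7 CPM in rescued Treg cells (SD, n = 3), and Tnfrsf4 by 0.27 ± 0.21. Cd27 differed by 0.02 ± 0.22, Tnfrsf14, the receptor HVEM, by -0.12 ± 0.36 and Tnfrsf8, which encodes CD30, by -0.50 ± 0.40. The lowest rescued library of Tnfrsf9 lay just above the highest control library. In all, 4 of the 10 members did not overlap between the populations (2 higher, 2 lower), where 24.2% of all genes tested did not (12.6% higher, 11.6% lower). The median log2 change of the members was -0.05 against -0.03 for all genes.

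Comparing each Treg population with male “wannabes” asked how cells that express functional Foxp3 differ from cells that lack it. The hosts of control Treg cells are healthy and carry another Foxp3 allele. Those of both Treg populations carry the recombinase, which those of “wannabes” lack. These cannot be told apart from Foxp3 here, and both comparisons use the same 2 “wannabe” libraries. Tnfrsf9 was higher in both. Of 10 members 2 were called in control Treg cells, both higher, where 16.2% of all genes were called (9.92% higher, 6.27% lower), and 3 were called in rescued Treg cells (2 higher, 1 lower), where 14.1% were called (10.0% higher, 4.06% lower). Tnfrsf9 was read at 104 and 112 CPM in the “wannabes”, below every Treg library, which held between 332 and 444 CPM. Control Treg cells were 3.15-fold higher (log2 1.65 ± 0.16, adjusted p = 0.000368) and rescued Treg cells 3.75-fold higher (1.91 ± 0.17, adjusted p = 0.000233). Tnfrsf9 was called under each of the 7 alternatives and without any 1 library in both comparisons, with log2 values from 1.60 to 1.69 for control and 1.85 to 2.01 for rescued Treg cells when a library was left out.

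Fas was read at 61.7 and 58.5 CPM in “wannabes”, between the control and the rescued Treg libraries. It was 1.79-fold higher in control Treg cells than in “wannabes” (log2 0.84 ± 0.21, adjusted p = 0.0217) and was not called in rescued Treg cells (log2 -0.46 ± 0.21, adjusted p = 0.174), although all rescued libraries lay below both “wannabe” libraries. The call for control Treg cells was lost without control replicate 3 (adjusted p = 0.0827), without “wannabe” replicate 1 (0.0532) or replicate 2 (0.0897), and with the GC correction (0.53, adjusted p = 0.0711), whereas the GC correction called Fas lower in rescued Treg cells (-0.69, adjusted p = 0.025).

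The other called members lost their call without single libraries and with only the 2 populations compared (adjusted p = 0.099 for Tnfrsf1b and 0.0964 for Tnfrsf25, edgeR). Tnfrsf1b read 424 and 723 CPM in “wannabes”, and was 1.74-fold higher in rescued Treg cells (log2 0.79 ± 0.22, adjusted p = 0.035). Without “wannabe” replicate 1 the difference of Tnfrsf1b was 0.46 (adjusted p = 0.152) and without rescued replicate 3 it was 0.69 (0.0984). Leaving out any control replicate (0.053 to 0.0571) or rescued replicate 2 (0.079) also ended the call. Tnfrsf25 read 140.0 and 219 CPM in “wannabes” and was 1.62-fold lower in rescued Treg cells (log2 -0.70 ± 0.21, adjusted p = 0.0449). Without “wannabe” replicate 2 the difference of Tnfrsf25 was -0.39 (adjusted p = 0.261), without rescued replicate 1 it was -0.60 (0.129), and of the 8 fits without 1 library only that without “wannabe” replicate 1 kept the call (-0.99, adjusted p = 0.00843).

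Cd27 read 199 and 382 CPM in “wannabes”, below all 6 Treg libraries (385 to 536 CPM), and missed the threshold in both comparisons. Its log2 difference was 0.72 ± 0.25 for control Treg cells (adjusted p = 0.0747) and 0.74 ± 0.25 for rescued Treg cells (adjusted p = 0.0762), and Cd27 passed in both with DESeq2 (0.0471 and 0.0383) and with the GC correction (0.0134 and 0.0157). Without “wannabe” replicate 1 the differences of Cd27 were 0.32 and 0.34, without replicate 2 they were 1.22 and 1.24 and passed (0.00582 and 0.00468).

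Tnfrsf4 and Tnfrsf18, the neighbors on chromosome 4, were called in neither comparison. Tnfrsf4 read 479 and 922 CPM in “wannabes”, and the log2 change from “wannabes” was -0.26 ± 0.23 for control and 0.01 ± 0.23 for rescued Treg cells. Tnfrsf18 read 326 and 626 CPM in “wannabes”, and its change was 0.16 ± 0.23 for control and 0.26 ± 0.24 for rescued Treg cells. The “wannabe” replicates decided the sign of these values. Against control Treg cells Tnfrsf4 was called at -0.66 without replicate 1 (adjusted p = 0.0245) and stood at 0.24 without replicate 2, and Tnfrsf18 stood at -0.24 without replicate 1 and was called at 0.66 without replicate 2 (0.0404). Against rescued Treg cells Tnfrsf18 was called at 0.76 without replicate 2 (0.0248). Tnfrsf1b was likewise called in control Treg cells, at 0.74, without replicate 2 (0.0313).

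Tnfrsf8 was read at 13.5 and 11.5 CPM in “wannabes”, above the rescued libraries (3.60 to 7.08 CPM) and overlapping the control libraries (5.84 to 11.9 CPM). Its difference of -1.15 ± 0.44 in rescued Treg cells did not pass (adjusted p = 0.111). Tnfrsf1a and Tnfrsf14 overlapped in both comparisons, with log2 values between 0.05 and 0.35. Libraries of 3 members did not overlap in the comparison with control Treg cells, all higher, where 46.1% of all genes did not (25.4% higher, 20.7% lower). In the comparison with rescued Treg cells they did not for 6 (3 higher, 3 lower), where 42.7% of all genes did not (22.0% higher, 20.7% lower). Marker RNA of other cell types also differed between the male populations. The 6 dendritic markers summed to 0.892 to 1.93 CPM in control, 2.17 to 3.72 in rescued and 4.203 to 7.36 in “wannabe” libraries, without overlap. Xcr1 led this sum, with means of 0.780, 1.47 and 4.66 CPM in this order, followed by Zbtb46 (0.669, 0.929 and 1.11). Clec9a and Siglech were at 3 counts or fewer in every one of these libraries, and Itgax and Flt3 in every control and “wannabe” library. The 6 T cell markers summed to 4506 to 4815, 4038 to 4571 and 5008 to 6471 CPM. The part of all these markers in the values of the receptors was not tested.

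**Figure D3:**
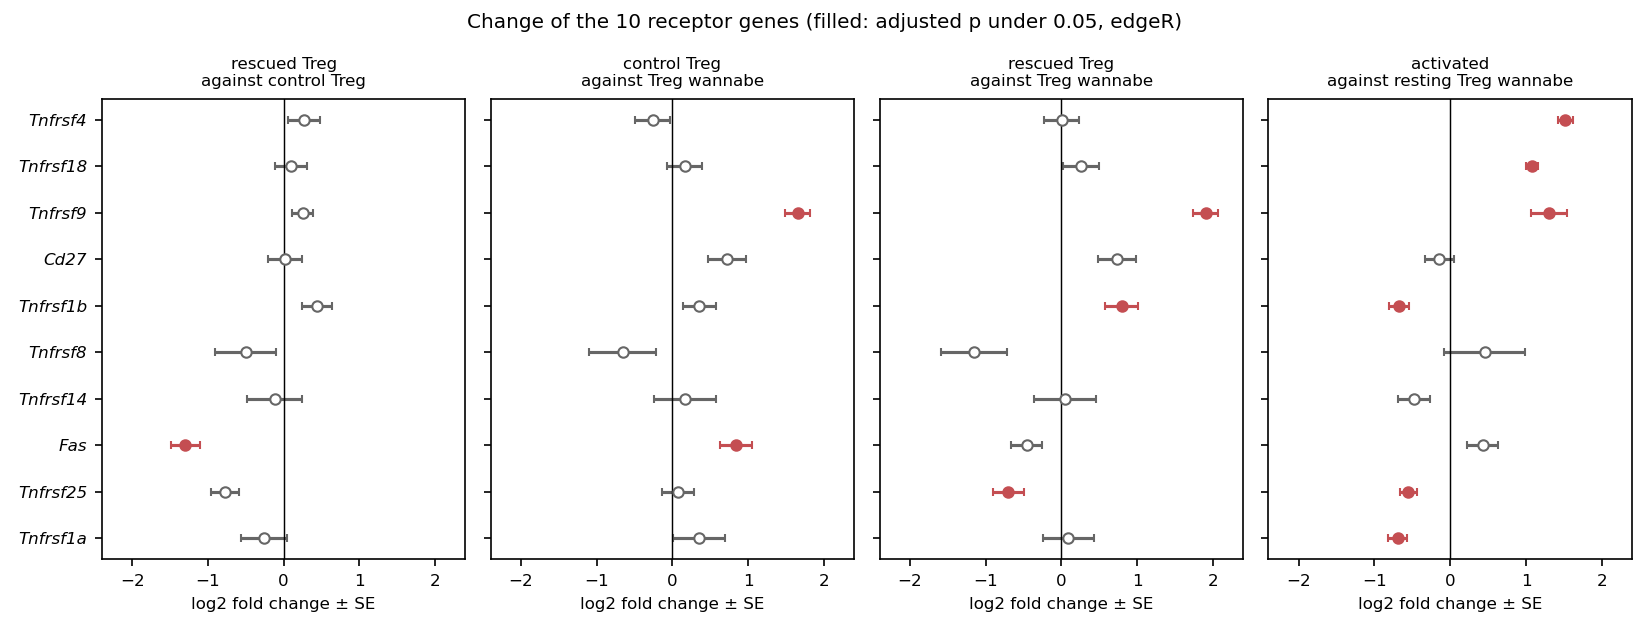
Log2 fold change of the 10 receptor genes in 4 comparisons (points) with its standard error (bars), filled where edgeR's adjusted p was under 0.05. Fas was called in the first 2 panels, Tnfrsf9 in the last 3, and Tnfrsf4 and Tnfrsf18 in the last.

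The second experiment asked how “wannabes” change once the Treg cells of their host are killed. Here 6 of the 10 members were called, 3 in each direction, where 22.5% of 13166 genes were called (11.3% higher, 11.2% lower). Tnfrsf4 was read at 197, 239 and 206 CPM in resting and at 593 and 636 CPM in activated “wannabes”. The populations did not overlap and differed 2.87-fold (log2 1.52 ± 0.10, adjusted p = 0.000465). Its neighbor Tnfrsf18 was read at 177, 197 and 186 CPM in resting and at 377 and 408 CPM in activated “wannabes”, again without overlap (2.11-fold, log2 1.07 ± 0.08, adjusted p = 0.000624). Both were called in all 5 fits without 1 library and under the 6 other alternatives. Tnfrsf9 was read at 65.2, 45.3 and 82.2 CPM in resting and at 139 and 178 CPM in activated “wannabes” (2.47-fold, log2 1.31 ± 0.24, adjusted p = 0.0127). The call was lost without activated replicate 1 (1.47, adjusted p = 0.0571) and without replicate 2 (1.11, adjusted p = 0.109), fits in which the lone activated library was assumed to vary like the resting ones.

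The 3 members that fell are the TNF receptors and DR3. Tnfrsf1b was read at 571, 666 and 486 CPM in resting and at 347 and 371 CPM in activated “wannabes” (1.60-fold lower, log2 -0.68 ± 0.14, adjusted p = 0.0172). Tnfrsf1a was read at 31.1, 32.4 and 32.2 CPM in resting and at 17.9 and 21.6 CPM in activated “wannabes” (1.62-fold lower, log2 -0.69 ± 0.13, adjusted p = 0.0128). Tnfrsf25 was read at 223, 267 and 218 CPM in resting and at 166 and 156 CPM in activated “wannabes” (1.47-fold lower, log2 -0.55 ± 0.11, adjusted p = 0.0165). None of these overlapped between the populations. Without activated replicate 1, Tnfrsf1b (-0.63, adjusted p = 0.127), Tnfrsf1a (-0.56, 0.11) and Tnfrsf25 (-0.60, 0.0921) were not called, and without activated replicate 2, Tnfrsf1b (-0.74, 0.0958) and Tnfrsf25 (-0.52, 0.124) were not.

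Fas was read at 55.6, 41.5 and 70.8 CPM in resting and at 74.8 and 75.8 CPM in activated “wannabes”, without overlap, and was not called (log2 0.43 ± 0.21, adjusted p = 0.18), though it was without resting replicate 3 (0.63, adjusted p = 0.0422). Cd27 was read at 234, 184 and 293 CPM in resting and at 199 and 229.6 CPM in activated “wannabes”, which overlapped (log2 -0.15 ± 0.19). Tnfrsf14 stood at 7.46 ± 1.24 CPM in resting (SD, n = 3) and 5.34 ± 0.0978 in activated “wannabes” (SD, n = 2, adjusted p = 0.148), and Tnfrsf8 at 4.79 ± 2.73 and 6.57 ± 0.881 (adjusted p = 0.57). Libraries of 8 members did not overlap (4 higher, 4 lower), where 56.5% of all genes tested did not (27.9% higher, 28.6% lower), and the median log2 change of the members was 0.14 against -0.01 for all genes.

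Marker RNA of other cell types also differed in this comparison. The 8 B cell markers summed to between 71.1 and 73.2 CPM in activated and between 11.2 and 13.4 in resting “wannabes”, of which Cd22 and Cd79b made up 47.6 and 21.1 CPM in activated ones, while Ms4a1 was read at 1 to 4 counts in activated libraries. The 6 dendritic markers summed to between 6.75 and 8.04 CPM in activated and between 3.30 and 4.395 in resting “wannabes”. Xcr1 led this sum, with means of 5.22 CPM in activated and 2.74 in resting “wannabes”, followed by Zbtb46 (1.57 and 0.714). Flt3 and Clec9a were at 3 counts or fewer in each activated library. The 8 myeloid markers summed to between 6.497 and 10.03 CPM in activated and between 1.45 and 5.25 in resting “wannabes”, and the 5 of CD8 T and NK cells to between 17.7 and 18.1 and between 12.3 and 15.4. The 4 erythroid markers were lower, at 0.191 to 0.289 CPM in activated against 0.343 to 17.4 in resting “wannabes”, and the 6 T cell markers summed to 4704 to 4901 and 5165 to 5599 CPM. The part of such RNA in the values of the receptors was not tested.

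**Figure D4:**
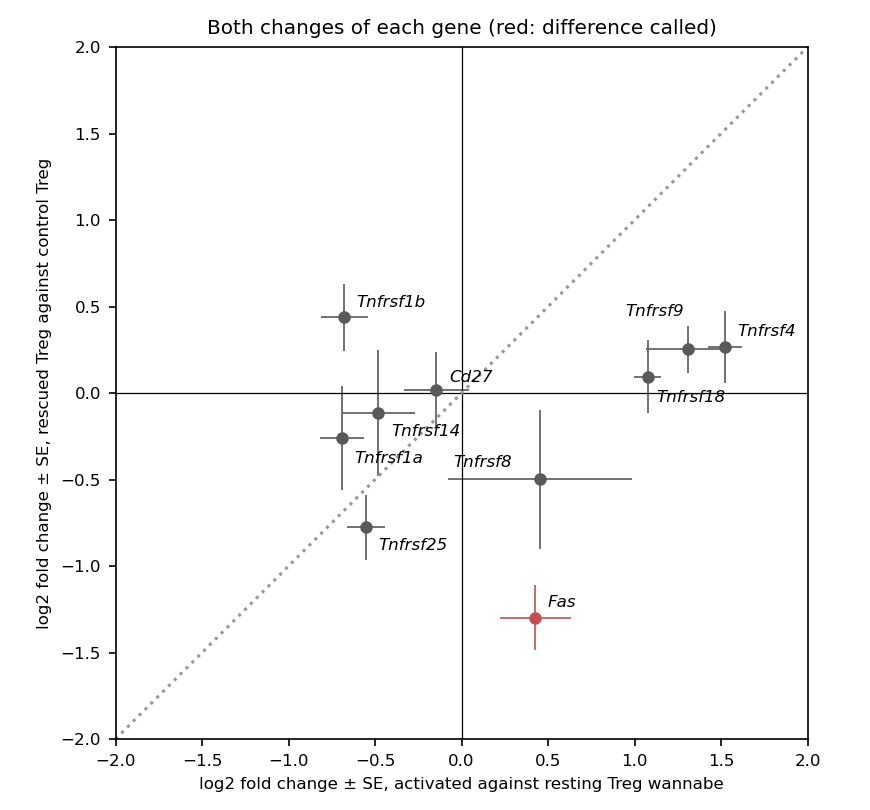
Log2 fold change of each receptor gene in activated against resting “wannabes” (x axis) and in rescued against control Treg cells (y axis), with standard errors, and a dotted line where both are equal. Fas (red) lies at -1.30 on the y axis and 0.43 on the x axis, and Tnfrsf4, Tnfrsf9 and Tnfrsf18 lie at 1.07 to 1.52 on the x axis and 0.10 to 0.27 on the y axis.

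Whether the change from control to rescued Treg cells differed from that of “wannabes” was tested over all 13 libraries as the difference of the log2 changes, which share no library. Fas was the only member called of 10, where 1.53% of 15201 genes were. Fas was lower in rescued Treg cells and numerically higher in activated “wannabes”, a difference of -1.71 ± 0.29 (log2, adjusted p = 0.0119). The call was kept in 11 of 13 fits without 1 library and lost without activated replicate 1 (-1.72, adjusted p = 0.0585) or replicate 2 (-1.70, adjusted p = 0.0659). Tnfrsf4 rose by 1.52 in “wannabes” and stood at 0.27 in Treg cells, a difference of -1.24 ± 0.29 that just missed the threshold (adjusted p = 0.0549). That of Tnfrsf4 passed in all 6 alternatives that kept every library (0.00294 to 0.0459, and -1.28 with adjusted p = 0.00814 under the GC correction) and without either male “wannabe” library (0.00285 and 0.00291). Tnfrsf1b went the other way, with -0.68 in “wannabes” and 0.44 in Treg cells (difference 1.13 ± 0.29, adjusted p = 0.0756). The difference of Tnfrsf1b passed in 4 of 6 alternatives, among them DESeq2 (0.00857) and the GC correction (1.105, adjusted p = 0.0222), without either male “wannabe” library (0.0132 and 0.0134) and without rescued replicate 1 (0.0486). Tnfrsf9 (-1.04 ± 0.28, adjusted p = 0.087) and Tnfrsf18 (-0.96 ± 0.29, adjusted p = 0.127) did not pass. Tnfrsf9 passed with DESeq2 (0.0168) and without resting replicate 3 (0.026), and Tnfrsf18 passed with DESeq2 (0.032), with the GC correction (-1.01, adjusted p = 0.0239) and without male “wannabe” replicate 1 (0.00851) or replicate 2 (0.00887). Tnfrsf25 was lower in both experiments, by -0.77 and -0.55, and its difference of -0.21 ± 0.25 did not pass (adjusted p = 0.818).

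Ligand genes of the TNF superfamily were also read in the same cells, both ligands of the members and others, Cd40lg, Tnfsf11 and Tnfsf13b among them. Of 17 ligand genes in the list 14 were tested in the male libraries, with a median log2 change of 0.24 between the Treg populations (-0.03 over all genes), -1.57 in control (0.09) and -1.17 in rescued Treg cells (0.00) against “wannabes”, and of 13 in the female libraries it was 0.20 (-0.01). Against “wannabes”, 7 were called in control Treg cells (2 higher, 5 lower), where 16.2% of all genes were called, and 6 in rescued Treg cells (2 higher, 4 lower), where 14.1% were. Tnfsf8, the ligand of CD30 (Tnfrsf8), was read at 243 ± 12.5 CPM in “wannabes” (SD, n = 2) and at 45.02 ± 3.19 in control and 55.4 ± 17.8 in rescued Treg cells (SD, n = 3). It fell by 2.43 (log2, adjusted p = 0.000382) in control and by 2.13 (adjusted p = 0.000395) in rescued Treg cells. Tnfsf14, the ligand LIGHT of HVEM (Tnfrsf14), was read at 32.0 ± 9.70 CPM in “wannabes”, 8.78 ± 4.46 in control and 9.99 ± 1.01 in rescued Treg cells, and was lower in both (log2 -1.87, adjusted p = 0.0132, and -1.68, adjusted p = 0.022). Tnfsf9, the ligand of CD137 (Tnfrsf9), was lower in control Treg cells (5.55 ± 1.26 against 17.9 ± 4.84 CPM, log2 -1.69, adjusted p = 0.0199) and not called in rescued ones (-1.09, adjusted p = 0.112). Cd40lg, the CD40 ligand, fell in control Treg cells by 1.58 (adjusted p = 0.00162) and in rescued Treg cells by 1.25 (adjusted p = 0.00438). Ltb, a chain of membrane lymphotoxin, was 1.84 (log2, adjusted p = 0.00429) higher in control and 1.68 (adjusted p = 0.0063) higher in rescued Treg cells, and Tnfsf11, the ligand RANKL, was 0.98 (adjusted p = 0.0448) and 2.11 (adjusted p = 0.00118) higher. Tnfsf13b, which encodes BAFF, was read at 30.3 ± 6.94 CPM in “wannabes”, 1.22 ± 1.12 in control and 10.6 ± 2.92 in rescued Treg cells, and was lower in control Treg cells (log2 -4.62, adjusted p = 0.00202).

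Between the Treg populations 3 of 14 ligands were called, where 2.30% of all genes were. Lta, whose product lymphotoxin alpha binds both TNF receptors, was lower in rescued Treg cells (34.5 ± 9.68 against 101 ± 11.7 CPM, SD, n = 3, log2 -1.54, adjusted p = 0.00964) and also fell against “wannabes” by 0.85 (adjusted p = 0.0497). Tnfsf11 (log2 1.13, adjusted p = 0.0493) and Tnfsf13b (3.11, adjusted p = 0.0308) were higher. Tnf itself was read at 50.7 ± 7.10 CPM in control, 28.7 ± 11.3 in rescued and 30.8 ± 2.13 in “wannabe” libraries and was not called (log2 -0.82, adjusted p = 0.18, between the Treg populations). In the female libraries 2 of 13 ligands tested were called, where 22.5% of all genes were, Ltb at 789 ± 18.4 CPM in activated against 990.5 ± 62.3 in resting “wannabes” (log2 -0.33, adjusted p = 0.0291) and Tnfsf13b at 17.5 ± 1.03 against 6.94 ± 2.60 (log2 1.33, adjusted p = 0.0242).

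Fasl, the ligand of Fas, was read at 7.59 ± 0.529 CPM in control, 13.4 ± 4.15 in rescued and 15.8 ± 3.47 in “wannabe” libraries of the male experiment, and at 17.1 ± 1.80 in resting and 25.7 ± 5.00 in activated “wannabes”. It passed in no comparison, with adjusted p from 0.051 (activated against resting, log2 0.58 ± 0.17) to 0.708. The ligands of OX40 (Tnfsf4), of DR3 (Tnfsf15) and of CD27 (Cd70) had means of 2.37, 2.21 and 1.94 CPM at most in any population and were not called in any comparison that tested them. The ligand of GITR, Tnfsf18, was read at 8 counts at most in any library and was not tested. The count of called ligands fell from 3 to 1 between the Treg populations without control replicate 1 or any rescued replicate, from 7 to 4 in control Treg cells without “wannabe” replicate 2, and in the female libraries from 2 to 1 without resting replicate 1 and to 0 without either activated replicate. In the same fits the calls over all genes fell from 343 to between 114 and 187 between the Treg populations, from 2416 to 1983 in control Treg cells, and in the female libraries from 2958 to 2553 without resting replicate 1 and to 751 and 797 without activated replicate 1 and 2.

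**Figure D5:**
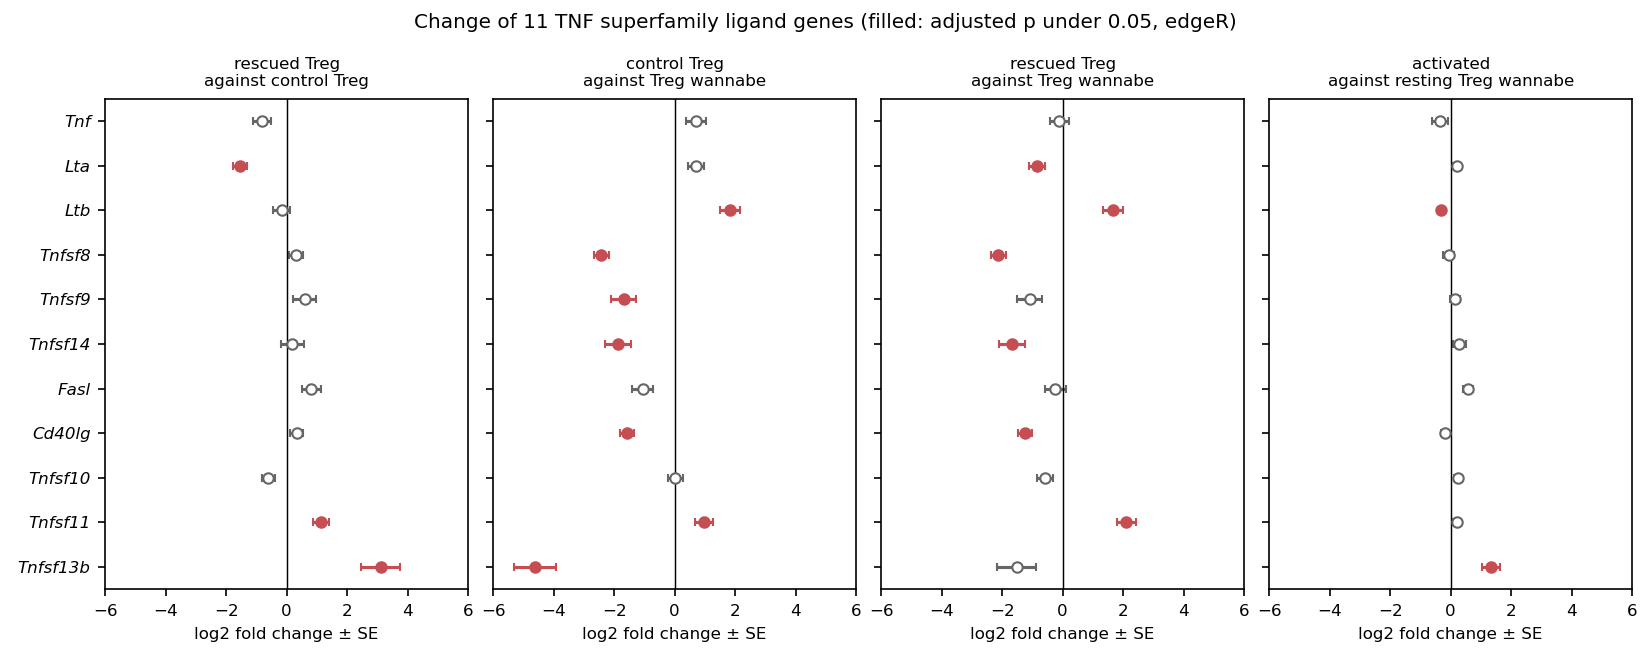
Log2 fold change of 11 TNF superfamily ligand genes with its standard error, filled where edgeR's adjusted p was under 0.05. Tnfsf8, Tnfsf14 and Cd40lg lie left of 0 and Ltb and Tnfsf11 right of it in both comparisons with male “wannabes”, and the low-count ligands Tnfsf4, Tnfsf15 and Cd70 are left out.

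Downstream of the receptors, the 18 adaptor genes held 0 called members between the Treg populations, 4 in control (3 higher, 1 lower) and 4 in rescued Treg cells (3 higher, 1 lower) against “wannabes”, and 5 in activated against resting “wannabes” (2 higher, 3 lower). Of all genes 2.30%, 16.2%, 14.1% and 22.5% were called in these comparisons. The median log2 changes of the adaptors were 0.05, 0.19, 0.12 and 0.00 in this order, against -0.03, 0.09, 0.00 and -0.01 over all genes. Beside the 0 of edgeR, DESeq2 called 2 and 3 had an unadjusted p under 0.05. Ripk1, a kinase at the TNF receptor complex, was 1.14 (log2, adjusted p = 0.00561) higher in control and 1.79 (adjusted p = 0.000508) higher in rescued Treg cells than in “wannabes”. Tradd, the adaptor of TNFR1 and DR3, was 1.24 (adjusted p = 0.00527) and 1.57 (adjusted p = 0.00137) higher, and Traf4 1.72 (adjusted p = 0.0335) and 2.396 (adjusted p = 0.00851) higher. Traf7 was lower in control (log2 -0.63) and Map3k14, the kinase NIK, in rescued Treg cells (-1.13). In activated “wannabes” Fadd (log2 0.65) and Siva1 (0.66), a protein that binds CD27 and GITR, were higher, and Traf6 (-0.45), Map3k14 (-0.44) and Traf2 (-0.38) were lower. Without either activated replicate 0 adaptors were called there, without resting replicate 1 or 3 they were 2 and 1, and in control Treg cells against “wannabes” 2 were called without control replicate 1 or 3. Over all genes 751 and 797 in place of 2958 were called without activated replicate 1 and 2, 2553 and 2344 without resting replicate 1 and 3, and 1588 and 1580 in place of 2416 without control replicate 1 and 3. Over all alternatives and left-out libraries the count of adaptors ran from 0 to 2, 2 to 6, 3 to 7 and 0 to 7 in the 4 comparisons.

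Of 14 NF-kB genes, 6 were called in control Treg cells against “wannabes” (5 higher, 1 lower), 5 in rescued Treg cells (4 higher, 1 lower), 1 between the Treg populations (lower) and 3 in activated against resting “wannabes” (2 higher, 1 lower), with median log2 changes of -0.02, -0.10, 0.06 and 0.07. In the same order 16.2%, 14.1%, 2.30% and 22.5% of all genes were called, with medians of 0.09, 0.00, -0.03 and -0.01. Chuk, the kinase IKK alpha, was 1.80 (log2, adjusted p = 0.000445) and 2.07 (adjusted p = 0.000233) higher in control and rescued Treg cells, Relb 1.70 (adjusted p = 0.00387) and 2.39 (adjusted p = 0.000589) higher and Nfkbiz 1.62 (adjusted p = 0.000506) and 1.88 (adjusted p = 0.000233) higher, whereas Nfkb1 was lower in both (log2 -0.71, adjusted p = 0.0135, and -0.90, adjusted p = 0.00394). Rel, the c-Rel subunit, was lower in rescued than in control Treg cells (47.6 ± 9.09 against 99.7 ± 2.46 CPM, SD, n = 3, log2 -1.07, adjusted p = 0.0159), in which it was 1.39 higher than in “wannabes”. The call of Rel between the Treg populations was lost without any control replicate and without rescued replicate 1 or 3, which left 0 called NF-kB genes and 114 to 172 called genes in all in place of 343. In rescued Treg cells 8 NF-kB genes were called without “wannabe” replicate 1, where 1959 genes in all were in place of 2105. In activated “wannabes” Nfkb1 was lower (-0.83) and Nfkb2 (0.33) and Nfkbie (0.38) were higher, and 0 of the 14 were called without either activated replicate, as the calls over all genes fell from 2958 to 751 and 797. Of 18 other receptors of the family 13 were tested in the male libraries, and edgeR called 0 in each of the 3 comparisons, DESeq2 2, 1 and 3 (rescued against control, and control and rescued against “wannabes”), and 4, 1 and 3 had an unadjusted p under 0.05. In the female libraries 4 of 12 were called, where 22.5% of all genes were, Tnfrsf13b (log2 -1.32), Tnfrsf12a (-0.98) and Tnfrsf22 (-0.95) lower and Tnfrsf11a, which encodes RANK, higher at 0.945 ± 0.346 against 0.0464 ± 0.0193 CPM. Without either activated replicate 2 receptors of this list were called, in the fits with 751 and 797 called genes. The median log2 change of these receptors was -0.63 in rescued against control Treg cells (-0.03 over all genes), -0.04 in control (0.09) and -0.34 in rescued Treg cells (0.00) against “wannabes”, and -0.10 in activated against resting “wannabes” (-0.01). These medians take in genes near the floor. Between the Treg populations Tnfrsf11a (-3.54 ± 1.90), Tnfrsf19 (-3.13 ± 1.48), Edar (-2.20 ± 2.13) and Tnfrsf21 (-1.88 ± 1.57) had means of 1.05 CPM at most. Tnfrsf22 (0.61), Tnfrsf23 (1.25), Tnfrsf26 (0.47) and Tnfrsf13c (0.48) were numerically higher there.

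Over the 8 male libraries, the genes whose log2 CPM was most like that of a member were named as a description, since the libraries share group, depth and GC content. For Fas these were Parp8 (Pearson's r = 0.98) and Capn3 (0.97), for Tnfrsf9 Mob1a and Mmd (both 0.99), for Tnfrsf1b Arrdc4 and Klf11 (both 0.98) and for Tnfrsf25 2010204K13Rik (0.99) and Vat1 (0.98). Cd27 was most like Izumo1r, which encodes the Treg marker FR4 (0.99), and Zfp513 (0.99). Tnfrsf18 was most like Gimap5 (0.99) and Grik5 (0.98), and Tnfrsf4 most like Itm2c and Ubxn6 (both 0.98). Tnfrsf1a, Tnfrsf14 and Tnfrsf8 had none above 0.96. Tnfrsf4 and Tnfrsf18 were not among each other's 2 most similar genes.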

How the data were processed

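Bulk RNA-seq of sorted CD4 T cells was deposited as 2 tables of read counts per gene, one of 8 male and one of 5 female libraries. The table columns carry short names, GFP, Thy1 and DTR in the male and LSL-WT and LSL-DTR in the female table, which were matched to rescued, “wannabe” and control and to resting and activated libraries through the genotypes and the sorted markers. The series' design text gives 3 activated and 2 resting libraries, against 2 and 3 in the labels and columns, which were followed. Per the labels and the study's methods, the authors amplified 2 ng of RNA with SMART-Seq v4, sequenced 50-base paired ends, aligned with STAR 2.7.3a to GRCm38, realigned locally with GATK and counted reads per gene in R. The gene annotation and the use of strand are not given in the sources used here. The authors' own test was DESeq2 1.28.1.

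The members, the lists of ligands, adaptors, NF-kB genes and other receptors, and the tests were chosen with earlier results of these data known. Rows without a gene name (4 of 24421) were left out. The deposited counts were tested with edgeR 4.0.16 (filterByExpr, TMM, quasi-likelihood, Benjamini-Hochberg adjusted p under 0.05) in R 4.3.3, on the 8 male libraries together (14925 genes), on the 5 female libraries alone (13166) and on all 13 for the difference of the changes (15201). SE is that of the log2 fold change. CPM were scaled by TMM within each experiment, so levels of male and female libraries were not set against each other by a test, and CPM per kb used the union of exons of GENCODE M21, in which 96.7% of the genes were found by name. The members are named in full, and of a list the 3 called genes with the largest change in each direction and the ligands of members. Similar genes were the 2 with the highest Pearson's r per member. Alternatives were DESeq2 1.42.0, edgeR with DESeq2's size factors, with every gene kept or with genes over a mean of 100 normalized counts, the replicate number as a block, only the populations compared, each library left out, and, chosen after seeing the data, a GC correction by lowess (span 0.3). The fits were tested on simulated counts, in which 100 genes were changed 2-fold and 100 4-fold. Of the 2-fold changes edgeR called 48 in rescued against control Treg cells, 95 in activated against resting “wannabes” and 19 for the difference. DESeq2 called 67, 96 and 38 of them, with 49, 57 and 36 false calls against 6, 24 and 2 by edgeR. With 25556783 to 36659638 counts per library, a gene with 0 counts may have up to 3, which covers counting error only.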

Additional observations from a re-analysis of the deposited data

Results flagged for a closer look

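The change of Fas from control to rescued Treg cells and that from resting to activated “wannabes” differed by -1.71 on the log2 scale in a test of the difference itself (adjusted p = 0.0119, edgeR, 13 libraries). The call was lost without activated replicate 1 (-1.72, adjusted p = 0.0585) or replicate 2 (-1.70, adjusted p = 0.0659). Fas was lower in 3 of 3 rescued libraries than in every control library, as 11.6% of all genes tested were. It was higher in 2 of 2 activated libraries than in every resting library, as 27.9% were, and was not called there (log2 0.43, adjusted p = 0.18, edgeR). Sex, age, agent and the populations compared cannot be told apart here.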

How the results depend on the processing

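The number of members called in rescued against control Treg cells was 1, and 2 with DESeq2, with the GC correction, without the filter, with a mean normalized count over 100 and with only the 2 populations compared, Tnfrsf25 being the member gained. It was 1 to 2 when a library was left out. In control Treg cells against “wannabes” it was 2, and 1 to 4 when a library was left out. In rescued Treg cells against “wannabes” it was 3, and 5 with the GC correction, 1 with only the 2 populations compared and 1 to 4 when a library was left out. In activated against resting “wannabes” it was 6, and 2 to 7 when a library was left out, the lowest without activated replicate 1, where the calls over all genes also fell, as given below. For the difference of the changes it was 1, and 5 with DESeq2, 4 with the GC correction, 3 without the filter, 2 with DESeq2 size factors, 2 with a mean normalized count over 100 and 0 to 4 when a library was left out.

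With the replicate number as a block the number of members called was 2 in rescued against control Treg cells (Tnfrsf25 gained), 3 in control Treg cells against “wannabes” (Cd27 gained, 0.76, adjusted p = 0.0275, edgeR), 5 in rescued Treg cells against “wannabes” (Cd27 gained, and Tnfrsf8 at -1.46, adjusted p = 0.044), 7 in activated against resting “wannabes” (Fas gained, 0.65, adjusted p = 0.0361) and 3 for the difference (Tnfrsf1b and Tnfrsf4 gained). Cd27 was also gained in both comparisons with “wannabes” without the filter, with a mean normalized count over 100 and with DESeq2. DESeq2 called 3 members in control and 4 in rescued Treg cells. Same-numbered libraries did not deviate together (correlations of -0.0273 to 0.0845 in male and -0.0292 to -0.0171 in female libraries), so the numbers were not read as pairs. Under the block Cd27 stood at -0.0045 in rescued against control Treg cells, 0.0414 in activated against resting “wannabes” and -0.0342 for the difference, and Tnfrsf14 at -0.0607 in control and -0.0908 in rescued Treg cells against “wannabes”.

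Some uncalled members changed sign. Cd27 stood at -0.0258 in rescued against control Treg cells with the GC correction. Tnfrsf4 in rescued Treg cells against “wannabes” stood at -0.0178 with DESeq2, -0.0174 with DESeq2 size factors and -0.0252 with only the 2 populations compared. With a library left out, rescued against control Treg cells gave -0.40 to 0.16 for Tnfrsf14 and -0.0614 to 0.16 for Cd27. Control Treg cells against “wannabes” gave -0.0877 to 0.93 for Tnfrsf1a, -0.66 to 0.24 for Tnfrsf4, -0.22 to 0.64 for Tnfrsf14, -0.24 to 0.66 for Tnfrsf18 and -0.22 to 0.38 for Tnfrsf25. Rescued Treg cells against “wannabes” gave -0.35 to 0.67 for Tnfrsf1a, -0.39 to 0.51 for Tnfrsf4, -0.34 to 0.53 for Tnfrsf14 and -0.14 to 0.76 for Tnfrsf18. Cd27 ranged from -0.30 to 0.0344 in activated against resting “wannabes” and from -0.0053 to 0.33 for the difference. The cause was not tested.

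Over all genes, 343 were called in rescued against control Treg cells by edgeR, and 1195 by DESeq2, 612 without the filter and 580 with only the 2 populations compared. Against “wannabes” DESeq2 called 3751 in control Treg cells (edgeR 2416) and 3316 in rescued Treg cells (edgeR 2105). For the difference it called 792 and the GC correction 370 (edgeR 233). With a library left out, the calls over all genes, against which the counts of members and lists are set, ran from 114 to 598 in rescued against control Treg cells, from 1549 to 2423 in control and from 1570 to 1959 in rescued Treg cells against “wannabes”, from 751 to 3215 in activated against resting “wannabes” and from 44 to 430 for the difference. The lowest were those without control replicate 1 (114) in the first and without activated replicate 1 (751 of 13607) or 2 (797 of 13636, and 44 for the difference) in the female libraries. The biological coefficient of variation was 0.510 in male and 0.171 in female libraries.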
